A study of Homo sapiens with 4 samples.

Results

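The MYC, MAX and MXD network is a family of transcription factors that compete for one DNA-binding partner. All 10 genes named for it (MYC, MYCN, MYCL, MAX, MXI1, MXD1, MXD3, MXD4, MNT and MGA) were found by symbol among the 58174 genes of the files, through GENCODE release 29. All 10 also passed the filter on low counts, which kept 18984 genes. Total RNA had been sequenced after removal of ribosomal RNA in 4 libraries of 293FT, a fast-growing human line made from 293 embryonic kidney cells that expresses large T antigen of SV40. The groups were NIPBLmut (2 libraries) and NIPBLwt (2 libraries), both kept in the same serum-containing medium. NIPBL encodes the protein that loads cohesin onto chromosomes, and the study is titled for CHOPS and Cornelia de Lange syndromes. The labels give neither the allele nor the number of clones, nor whether the libraries came from separate cultures, so any p-value covers the spread between these libraries only, and that spread may be technical. Transcription of MYC is known to depend on cohesin in several cell types.

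Proteins of the network bind the E-box CACGTG as dimers with MAX. MYC, MYCN and MYCL with MAX activate genes of growth, ribosome production and metabolism, while MXD proteins (MXI1 among them) and MNT with MAX recruit the SIN3 and histone deacetylase corepressors to the same sites. MGA also pairs with MAX, and is the scaffold of a Polycomb complex, PRC1.6, that silences germline genes.

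The expected counts of the 4 libraries summed to between 31545743 and 33161120. The libraries of a pair differed less in mutant, with a chi-square per gene of 3.71, than in wild type, with 42.1. NIPBL itself had 61.0 and 62.0 CPM (reads of a gene relative to its library's TMM-scaled total) in mutant, against 41.8 and 44.5 CPM in wild type, which does not show the allele (log2 fold change 0.51, edgeR adjusted p = 0.057). Kidney-line markers were present in every library, with summed levels of 774 to 822 CPM in mutant and 1038 to 1211 CPM in wild type over 11 genes. Single kidney-line markers differed far more than that sum: of the 11, 1 was called higher and 3 lower by edgeR. Over all tested genes 3.71% were called higher and 2.1% lower. NEFM, a neurofilament gene, fell to 1.33 and 0.833 CPM in mutant, against 72.8 and 63.9 CPM in wild type (log2 fold change -5.98, edgeR adjusted p = 0.0086), and was called without each library in turn. LIN28B, an RNA-binding protein gene, fell to 112 and 105 CPM in mutant, against 206 and 291 CPM in wild type (-1.20, adjusted p = 0.0369), and the keratin gene KRT8 rose to 111 and 104 CPM in mutant, against 59.8 and 61.1 CPM in wild type (0.83, adjusted p = 0.0295). Of 5 fibroblast markers 3 were tested, and all 3 were higher in mutant without overlap, where 32.3% of all tested genes were. The sum of the 5 was 16.0 to 16.7 CPM in mutant and 3.82 to 5.87 CPM in wild type. COL1A2 was at 0 in all 4 libraries. Of the 3 tested, edgeR called 2 higher and none lower. The 2 were PDGFRB (4.32 and 4.19 CPM in mutant, against 0.870 and 0.335 CPM in wild type) and LUM (4.94 and 4.80 CPM in mutant, against 1.61 and 1.10 CPM in wild type). Sums over 5 hepatocyte and 5 keratinocyte markers stayed under 2 CPM in each library of either group, with SERPINA1, KRT14 and KRT1 at 0 throughout. Among these, edgeR called the keratinocyte gene DSG3 higher (1.18 and 0.919 CPM in mutant, against 0.0322 and 0.0335 CPM in wild type), while APOA1 (adjusted p = 0.0697) was the hepatocyte gene with the smallest p. The part of these differences in the results below was not tested.

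Promoter sequences are shown for the members with the most altered levels and one of the searched motifs. They come from RefSeq (GRCh38.p14), which held 14 promoter windows for 9 of the members. MYC is named only. Each window runs from 250 bases before to 50 bases after a transcript start, and the stretch shown lies before that start and outside every exon of GENCODE 29. Both strands were searched for the E-box CACGTG and for the E2F letters TTTGGCGC, TTTCGCGC, TTTCCCGC and TTTGCCGC, and matches are in capitals. In the MYCN window 2 E2F matches on opposite strands overlap and form a single run. The E-box was held by 2 of the 14 windows, those of MXD4 (position -238 from the start) and MNT (position -193), and by 7.26% of all 35116 windows. E2F letters were held by 2 of the 14, those of MYCN and 1 MGA window, and by 3.31% of all.
MYCN, chr2:15940352-15940549, plus strand: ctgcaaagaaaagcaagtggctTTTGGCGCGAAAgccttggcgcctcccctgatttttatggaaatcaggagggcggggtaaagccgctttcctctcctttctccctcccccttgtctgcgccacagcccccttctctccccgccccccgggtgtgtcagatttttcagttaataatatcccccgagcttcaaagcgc
MXD4, chr4:2262295-2262359, minus strand: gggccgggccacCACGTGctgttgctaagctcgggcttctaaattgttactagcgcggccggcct
MNT, chr17:2401119-2401310, minus strand: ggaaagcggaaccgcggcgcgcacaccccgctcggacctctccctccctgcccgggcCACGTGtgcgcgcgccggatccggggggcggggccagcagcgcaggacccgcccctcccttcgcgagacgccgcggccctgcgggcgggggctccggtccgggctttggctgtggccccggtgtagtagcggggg
A match is a description of these letters and was not tested as a binding site. The 2 members with an E-box in the window had the lowest log2 fold changes of the 9 with a window. That link was picked with its values in view and was not tested. With the median of 25 tested coding genes to either side removed, MXD4 was at -0.24. That was above MNT (-0.50), MAX (-0.41) and MGA (-0.27).

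Of the 10 members 1 was called, MXD4, which was lower in the mutant libraries. Calls are genes with a Benjamini-Hochberg adjusted p under 0.05 from edgeR's quasi-likelihood test over the 18984 genes. In that fit, and with limma-voom or limma-trend on log2(TPM + 1), none of the 10 was called higher, while MYCN was called higher by DESeq2 and by edgeR with a replicate block. Fits without a wild-type library take their spread from the close mutant pair alone, so their calls are not read as results about the members. Unadjusted p was under 0.05 for 6 members, in a table where 29.8% of all tested genes were under it. Over all tested genes 5.81% were called, 3.71% higher and 2.1% lower, so 1 of 10 is not set apart from that background. Levels of the groups did not overlap at 8 of the members, 3 higher and 5 lower in mutant, where 63.2% of all tested genes did not overlap (32.3% higher and 30.8% lower). The members' median log2 fold change was -0.15, beside -0.0055 over all tested genes. With total counts in place of TMM scaling the median of all genes was 0.166, and calls over all genes were 1112 higher and 274 lower, beside 704 higher and 399 lower with TMM. Total counts called 7.3% of all genes, upper-quartile scaling 6.15% and DESeq2 13.2% (6.82% higher and 6.35% lower), and the members called were MXD4 with each of the first pair and MXD4 and MYCN with DESeq2. In bulk RNA, fewer cells that express a gene and less of its RNA per cell cannot be told apart.

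**Figure D1:**
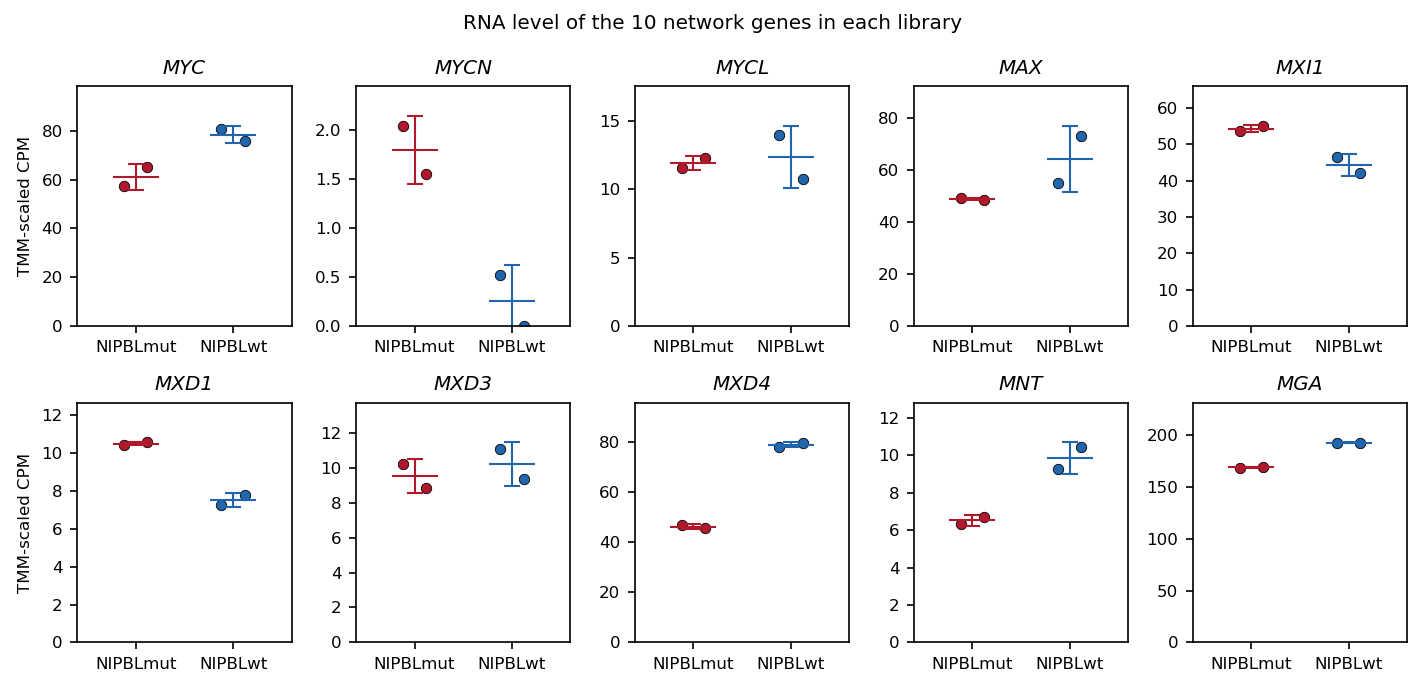
RNA level of each network gene in TMM-scaled CPM, 1 dot per library, with the mean and SD of each pair. The scale starts at 0 in each panel and differs between panels. MXD4 had 46.9 and 45.7 CPM in the mutant libraries, against 78.2 and 79.6 CPM in the wild-type libraries.

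Among the activators, MYC (ENSG00000136997, chromosome 8, 127735434 to 127741434, plus strand, GRCh38) was below both wild-type libraries in both mutant libraries, but was not called. It had 57.5 and 65.04 CPM in NIPBLmut replicates 1 and 2, against 81.0 and 76.0 CPM in NIPBLwt replicates 1 and 2. This was a log2 fold change of -0.36 (SE 0.12, 95% interval -0.66 to -0.05, edgeR adjusted p = 0.127). On the authors' TPM, which divide by the length of the isoforms RSEM assigned, the groups overlapped, at 24.4 and 28.7 TPM in mutant and 30.2 and 25.9 TPM in wild type. It fitted at -0.08 on log2(TPM + 1) (limma adjusted p = 0.741), where the median over all genes was 0.124. The size of the MYC difference also depended on library scaling. With total counts it was -0.19 (edgeR adjusted p = 0.368), where the median over all genes was 0.166. With TMM scaling and effective length offsets it was -0.26 (edgeR adjusted p = 0.275).

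MYCN, the paralog known for its amplification in neuroblastoma, was near the detection limit in wild type and low in mutant (ENSG00000134323, chromosome 2, 15940564 to 15947007, plus strand). Its reads numbered 69 and 54 in the mutant libraries, against 16 and 0 in the wild-type libraries. In CPM this was 2.04 and 1.55 in mutant, against 0.516 and 0 in wild type, so the groups did not overlap. The mutant mean of 1.80 CPM was 3.48-fold that of NIPBLwt replicate 1. It was at least 17.9-fold higher than NIPBLwt replicate 2, taken at 3 counts. That bound covers only the counting error of the 0 reads in that library, and not that of the mutant reads. The fitted log2 fold change of 2.76 (SE 0.97) depends on the prior count and was not called by edgeR (adjusted p = 0.134). DESeq2 called it (adjusted p = 0.0314), as did edgeR with the replicate number as a block (adjusted p = 0.043). MYCNOS, an antisense gene that overlaps MYCN, had 5 and 4 reads in mutant and 2 and 1 in wild type.

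MYCL, the paralog first found in small cell lung cancer, did not separate the groups (ENSG00000116990, chromosome 1, 39895426 to 39902256, minus strand). It had 11.6 and 12.3 CPM in mutant and 13.99 and 10.8 CPM in wild type. It had a log2 fold change of -0.05 with a 95% interval of -0.51 to 0.41 (edgeR adjusted p = 0.87), so its sign was not resolved. By TPM, MYC made up 83.3% and 85.8% of the 3 activators' summed level in mutant and 87.1% and 89.2% in wild type. The summed level was 29.3 and 33.4 TPM in mutant and 34.7 and 29.1 TPM in wild type, where the groups overlapped.

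MAX, the shared partner, was the member with the highest TPM in all 4 libraries (ENSG00000125952, chromosome 14, 65006174 to 65102695, minus strand). Its level was 36.9 and 37.7 TPM in mutant and 37.9 and 42.2 TPM in wild type. In CPM it had 49.2 and 48.6 in mutant, against 55.3 and 73.4 in wild type. The wild-type libraries thus differed more from each other than NIPBLwt replicate 1 did from the mutant pair. The log2 fold change of -0.40 (SE 0.16, edgeR adjusted p = 0.178) was -0.18 against NIPBLwt replicate 1 alone and -0.60 against NIPBLwt replicate 2 alone. MAX overlaps FNTB and CHURC1-FNTB on the other strand over 56479 and 55630 bases of its span, and the strand setting of the counting is not given in the sources used here. The ratio of MYC to MAX, which no library scaling affects, was 0.661 and 0.761 in mutant and 0.796 and 0.614 in wild type by TPM, so the groups overlapped.

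Among the repressors, MXD4 fell to 46.3 ± 0.880 CPM in the mutant libraries, against 78.9 ± 0.981 CPM in the wild-type libraries (SD, n = 2 each). MXD4 (ENSG00000123933, chromosome 4, 2247432 to 2262294, minus strand) encodes a MAX partner that recruits SIN3 and is associated with leaving the cell cycle. Both mutant libraries were below both wild-type libraries, by a gap far wider than either pair's spread. On the log2 scale the fold change was -0.77 (SE 0.11, 95% interval -1.04 to -0.50, edgeR adjusted p = 0.0309), which is 0.586 of the wild-type level. It was -0.76 against NIPBLwt replicate 1 alone and -0.80 against NIPBLwt replicate 2 alone. The call was lost without NIPBLmut replicate 1 (-0.79, adjusted p = 0.196) or without NIPBLmut replicate 2 (-0.75, adjusted p = 0.264), where the spread comes from the wider wild-type pair.

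MXI1 and MXD1 stood on the other side of 0, but neither was called. MXI1 (ENSG00000119950, chromosome 10, 110207605 to 110287365, plus strand) encodes MAX interactor 1, an MXD protein also called MXD2. It had 53.6 and 55.0 CPM in mutant, against 46.6 and 42.1 CPM in wild type, with no overlap. The log2 ratio of the groups was 0.29 (SE 0.12, edgeR adjusted p = 0.164). MXD1, the founding MXD gene (ENSG00000059728, chromosome 2, 69897688 to 69942945, plus strand), had 10.4 and 10.6 CPM in mutant, against 7.25 and 7.80 CPM in wild type. For MXD1 the ratio was 0.48 on the log2 scale (SE 0.16, edgeR adjusted p = 0.123). MXD1 shares 7888 bases of its span with SNRNP27 on the same strand, and how reads there were divided was not checked.

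MXD3, which in mice is known from cells in S phase, did not separate the groups (ENSG00000213347, chromosome 5, 177301461 to 177312757, minus strand). It had 10.2 and 8.85 CPM in mutant and 11.1 and 9.34 CPM in wild type. It had a log2 fold change of -0.10 with a 95% interval of -0.55 to 0.35 (edgeR adjusted p = 0.742). Its span overlaps RAB24 on the same strand and PRELID1 on the other.

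**Figure D2:**
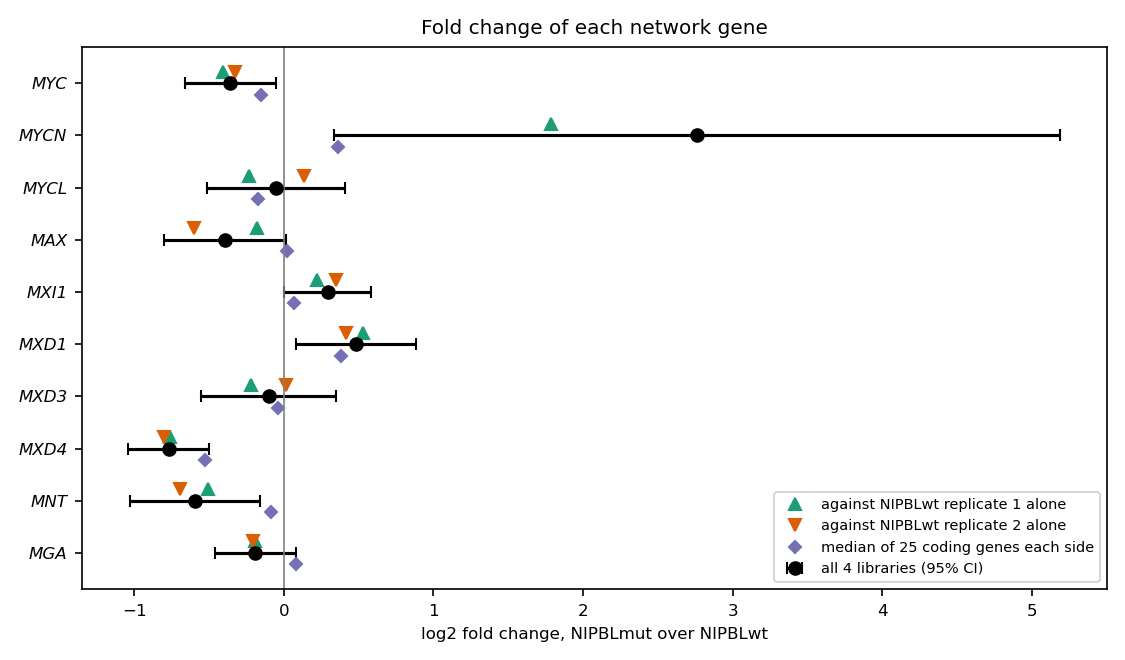
Log2 fold change of each network gene, NIPBLmut over NIPBLwt, with its 95% interval from edgeR (black), the values against each wild-type library alone (triangles) and the median of 25 tested coding genes to either side (diamonds). The value of MYCN against NIPBLwt replicate 2 alone is left out, since that library had 0 reads. MXD4 lies at -0.77 and its neighbours' median at -0.53.

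Within the MXD genes the order of levels differed between the groups. By TPM, MXI1 had 23.2 and 25.1 in mutant, against 18.7 and 16.0 in wild type. MXD4 had 17.6 and 17.3 TPM in mutant, against 26.7 and 28.5 TPM in wild type. MXI1 was thus the most abundant of the 4 in both mutant libraries, and MXD4 in both wild-type libraries. The ratio of MXI1 to MXD4 averaged 1.38 ± 0.0932 in mutant and 0.630 ± 0.0985 in wild type (SD, n = 2 each), with no overlap. This ratio was picked with its values in view and was not tested. With 2 libraries a group, an exact permutation test could not reach a p under 0.05. The summed level of the 4 MXD genes overlapped, at 53.4 and 51.0 TPM in mutant and 53.99 and 52.4 TPM in wild type. MXD4 made up 33.0% and 33.9% of that sum in mutant and 49.4% and 54.3% in wild type.

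**Figure D3:**
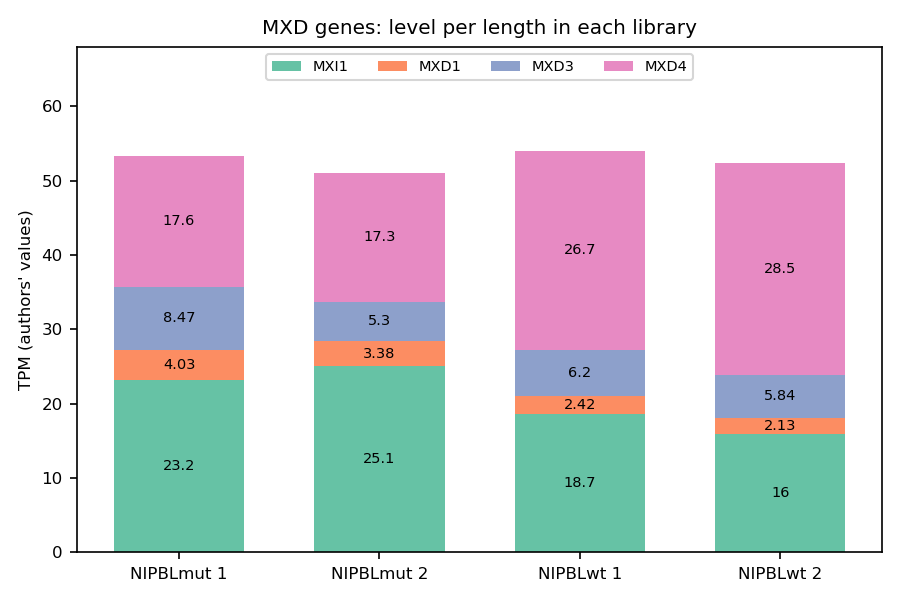
Level of the 4 MXD genes in each library in TPM (the authors' values, scaled per transcript length), stacked, with the value of each gene in its segment. The stacks are of similar height, 53.4 and 51.0 TPM in mutant and 53.99 and 52.4 TPM in wild type, while the MXD4 segment is smaller and the MXI1 segment larger in the mutant libraries.

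MNT, a repressor made in growing and resting cells alike, had the second lowest log2 fold change of the members (ENSG00000070444, chromosome 17, 2384060 to 2401118, minus strand). It had 6.33 and 6.72 CPM in mutant, against 9.25 and 10.4 CPM in wild type, with no overlap. The log2 fold change of -0.59 (SE 0.17, 95% interval -1.03 to -0.16) missed the threshold (edgeR adjusted p = 0.0971, DESeq2 adjusted p = 0.119). It was -0.51 against NIPBLwt replicate 1 alone and -0.69 against NIPBLwt replicate 2 alone.

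MGA had the most reads of the 10 genes, 5707 and 5910 in mutant and 5994 and 5770 in wild type, and the longest transcripts (ENSG00000174197, chromosome 15, 41621224 to 41773081, plus strand). It had 169 and 170 CPM in mutant, against 193.2 and 193.1 CPM in wild type. With TMM scaling both pairs were thus close and did not overlap, while the numbers of reads overlapped. The log2 fold change was -0.19 with a 95% interval of -0.46 to 0.08 (edgeR adjusted p = 0.291). With total counts it was -0.019 (edgeR adjusted p = 0.916), where the median over all genes was 0.166. With effective length offsets it was -0.32 (edgeR adjusted p = 0.142). The deposited length of MGA, RSEM's mean over transcripts weighted by their estimated abundance, was 6774 and 6715 bases in mutant, against 6170 and 6089 bases in wild type. It was picked with its values in view and was not tested, and it enters TPM but not CPM. By TPM, the order of the members in the mutant means was MAX, MYC, MXI1, MGA, MXD4, MXD3, MYCL, MXD1, MNT and MYCN. In the wild-type means it was MAX, MYC, MXD4, MGA, MXI1, MXD3, MYCL, MNT, MXD1 and MYCN. Neighbours in that order whose libraries overlapped were MYC and MXI1 in mutant, and MYC and MXD4, and MYCL and MNT, in wild type. The others did not overlap within a group, which with 2 libraries was not tested.

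The called member lies among genes that were also lower. The 50 tested coding genes nearest to MXD4, 25 to either side, had a median log2 fold change of -0.53, with 41 of 50 below 0, 8 called lower and 1 higher, where 2.1% of all genes were called lower. The nearest on either side were HAUS3 at -0.53 (edgeR adjusted p = 0.0571) and ZFYVE28 at -0.35 (adjusted p = 0.475). After that median was removed the log2 fold change of MXD4 was -0.24 and was not called (edgeR adjusted p = 0.228), in a fit that called 3.21% of all genes. Whether the remainder is a change of MXD4 itself was not tested.

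Several tested genes near MYCN were called higher, but not all. The adjacent ones were DDX1, at a log2 fold change of 0.08 (edgeR adjusted p = 0.816), and FAM49A, which rose to 7.07 and 6.69 CPM in mutant, against 0.903 and 0.502 CPM in wild type (log2 fold change 3.28, adjusted p = 0.0231). FAM84A (2.78) and the potassium channel gene KCNS3 (3.58), 3 and 4 places from MYCN on opposite sides, were also called higher, while NBAS (0.49) and SMC6 (0.50) between them were not. The neighbours of MYCN and of MYC were picked with their values in view. Around MYCN 42 of 50 genes were above 0, with a median of 0.36. EdgeR called 9 of the 50 higher and none lower, where 3.71% of all genes were called higher. With that median removed the log2 fold change of MYCN was 2.40 (edgeR adjusted p = 0.200).

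MXD1, also on chromosome 2, had 45 of 50 neighbours above 0 with a median of 0.38. With that median removed its log2 fold change was 0.10 (edgeR adjusted p = 0.72). MYC had 50 neighbours at a median of -0.15, with 6 called higher and 4 lower, where 3.71% and 2.1% of all genes were. After removal MYC was at -0.21 (edgeR adjusted p = 0.335). FAM84B and FAM49B, the adjacent tested genes, had -0.57 (adjusted p = 0.0552) and -0.30 (adjusted p = 0.192). PVT1, the long noncoding gene beside MYC, had 5.59 and 5.29 CPM in mutant, against 8.09 and 6.19 CPM in wild type (log2 fold change -0.39, edgeR adjusted p = 0.276), at -0.20 without NIPBLwt replicate 1. MNT, MAX and MXI1 had neighbour medians of -0.09, 0.02 and 0.07, which lie farther from their own values than the median around MXD1 does from MXD1.

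**Figure D4:**
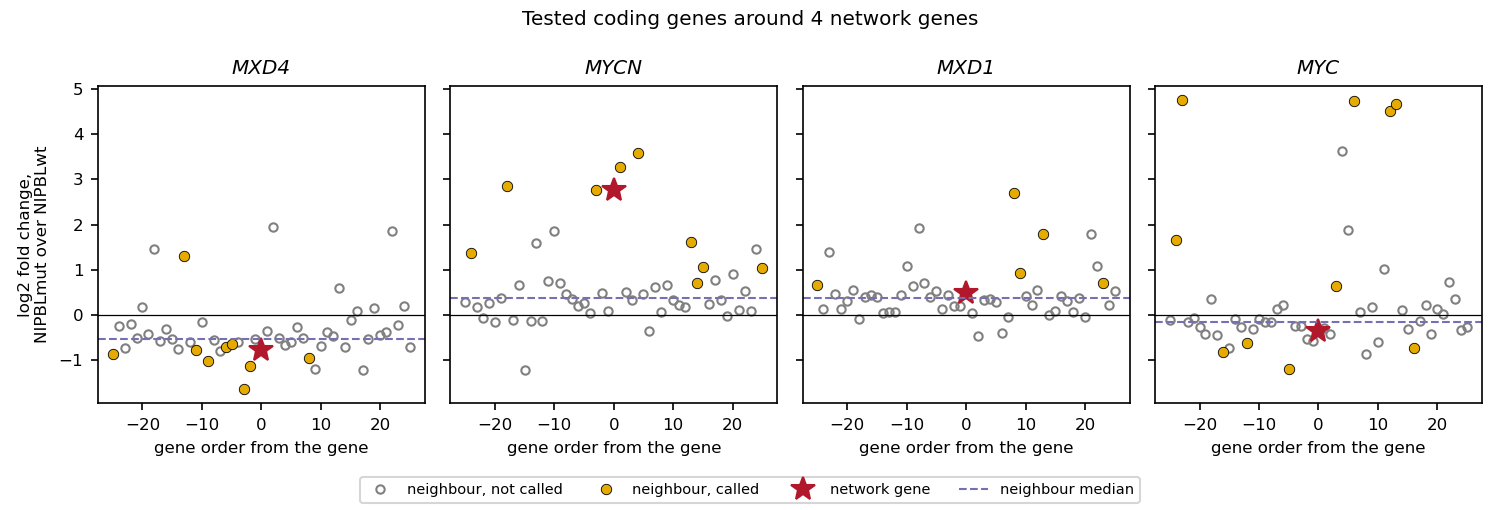
Log2 fold change, NIPBLmut over NIPBLwt, of 25 tested coding genes to either side of 4 network genes, in gene order along the chromosome. The star is the network gene, filled dots are called genes and the dashed line is the neighbours' median, -0.53 at MXD4, 0.36 at MYCN, 0.38 at MXD1 and -0.15 at MYC.

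The genes whose pattern over the 4 libraries was most like that of MXD4 were BCL2L11, OSBPL10, INTU, HOXD10 and THEM6. Likeness was the root mean square difference of centred log2 CPM, from 0.0122 to 0.0252 among 11192 coding genes of at least 5 CPM. BCL2L11, which encodes a cell-death activator, had 14.2 and 13.5 CPM in mutant, against 23.2 and 23.6 CPM in wild type. With 4 libraries many genes can be this close.

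Among the corepressors that MXD proteins recruit, NCOR1 was called. Of 9 SIN3, histone deacetylase and NCOR genes 1 was called higher and none lower by edgeR, where 3.71% of all genes were called higher. Unadjusted edgeR p was under 0.05 for 5 of the 9 (55.6%), beside 29.8% of all genes. DESeq2 called HDAC1 lower. NCOR1, a corepressor scaffold, rose to 375 and 432 CPM in mutant, against 139 and 143 CPM in wild type (log2 fold change 1.52, SE 0.13, edgeR adjusted p = 0.0152). It was called without each library in turn and with the neighbourhood median removed, at 1.32. NCOR1 has annotated pseudogene copies, between which counting could split reads. HDAC1 had 179 and 170 CPM in mutant, against 236 and 268 CPM in wild type (-0.53, edgeR adjusted p = 0.0648, DESeq2 adjusted p = 0.0136), and was picked with its values in view. The list's median was -0.28, with 6 of the 9 not overlapping and lower in mutant, where 30.8% of all genes did so.

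Of 12 genes of the MGA complex PRC1.6, 1 was called higher and 1 lower by edgeR, and 1 higher and 3 lower by DESeq2. Over all genes edgeR called 3.71% higher and 2.1% lower, and DESeq2 6.82% higher and 6.35% lower. Unadjusted edgeR p was under 0.05 for 6 of the 12, where 29.8% of all genes were under it. Of the 12, 7 did not overlap and were lower in mutant, where 30.8% of all genes did so. HDAC1 and HDAC2 are in this list and in the SIN3 list and enter these counts in both, so the counts are not separate. HDAC2 is named for that reason only. RING1, a ubiquitin ligase subunit, rose to 43.9 and 45.5 CPM in mutant, against 28.4 and 30.5 CPM in wild type (log2 fold change 0.60, edgeR adjusted p = 0.0449). CBX3, a heterochromatin protein, fell to 235 and 220 CPM in mutant, against 335 and 396 CPM in wild type (-0.68, adjusted p = 0.0496). RING1 and CBX3 each lost the call without either mutant library and with the neighbourhood median removed (adjusted p from 0.0708 to 0.43), while the folds were close to those above. RING1 was at 0.62 and 0.57 without a mutant library and 0.47 with the median removed, and CBX3 was at -0.73 and -0.64 without a mutant library and -0.64 with the median removed. The median of the 12 was -0.26, or -0.08 without NIPBLwt replicate 2 and -0.37 without NIPBLwt replicate 1.

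Germline genes that PRC1.6 is known to silence mostly stayed near the detection limit. Of 16 listed, 6 passed the filter and none was called by edgeR, DESeq2 or limma. Unadjusted edgeR p was under 0.05 for 2 of the 6 (33.3%), beside 29.8% of all genes. SYCP1, SMC1B and DMRTB1 had 0 reads in all 4 libraries. TDRKH, which acts in piRNA production in mice, had 38.8 and 39.9 CPM in mutant, against 29.4 and 27.95 CPM in wild type (log2 fold change 0.46, edgeR adjusted p = 0.0695).

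MYC's cofactors and regulators gave few calls. Of 12 chromatin cofactors none was called by edgeR, DESeq2 or limma. Unadjusted edgeR p was under 0.05 for 1 of them (8.33%), beside 29.8% of all genes. That gene, TRRAP, the scaffold of acetyltransferase complexes that MYC binds, had 36.7 and 34.5 CPM in mutant, against 48.0 and 50.97 CPM in wild type (log2 fold change -0.48, edgeR adjusted p = 0.0671). Of 17 genes that control MYC's transcription, mRNA or protein stability 1 was called lower and none higher by edgeR, where 2.1% of all genes were called lower. Unadjusted edgeR p was under 0.05 for 5 of the 17 (29.4%), beside 29.8% of all genes. DESeq2 called 1 higher and 2 lower, beside 6.82% higher and 6.35% lower of all genes. FUBP1, which binds an element upstream of the MYC promoter, fell to 138 and 127 CPM in mutant, against 224 and 282 CPM in wild type (-0.94, edgeR adjusted p = 0.0385). FUBP1 lost the call without either mutant library (adjusted p = 0.1 and 0.205) and with the neighbourhood median removed (-0.78, adjusted p = 0.0645). The ubiquitin ligase subunit FBXW7, which marks MYC for breakdown, had 56.8 and 57.7 CPM in mutant, against 61.9 and 62.4 CPM in wild type (-0.12, adjusted p = 0.494). FBXW7 was picked with its values in view.

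Of 40 genes known as activated by MYC, 2 were called lower by edgeR, where 2.1% of all genes were. None was called higher by edgeR, DESeq2 or limma. Unadjusted edgeR p was under 0.05 for 15 of them (37.5%), beside 29.8% of all genes, and DESeq2 called 12 lower (30.0%), beside 6.35% of all genes. HSPD1, a mitochondrial chaperonin, fell to 563 and 475 CPM in mutant, against 1032 and 1489 CPM in wild type (log2 fold change -1.28, edgeR adjusted p = 0.0373). EIF4E, the cap-binding translation factor, fell to 76.2 and 71.5 CPM in mutant, against 119 and 163 CPM in wild type (-0.93, edgeR adjusted p = 0.0489). EIF4E was not called without either mutant library (adjusted p = 0.109 and 0.194), nor HSPD1 without NIPBLmut replicate 2 (adjusted p = 0.0553), nor either of them with the neighbourhood median removed (-0.70 for HSPD1, adjusted p = 0.127, and -0.66 for EIF4E, adjusted p = 0.11). HSPD1, EIF4E and CBX3 have annotated pseudogenes, between which counting could split reads.

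The target list did not stand at one distance from the wild-type libraries. The median log2 fold change of the 40 was -0.52, beside -0.0055 over all genes. The mutant mean was below NIPBLwt replicate 1 at 28 of 40 targets with a median difference of -0.16, and below NIPBLwt replicate 2 at 36 of 40 with a median of -0.80. Of all 18984 genes, 9536 were below NIPBLwt replicate 1 (median -0.0018) and 9270 below NIPBLwt replicate 2 (median 0.0175). NIPBLwt replicate 2 itself exceeded NIPBLwt replicate 1 at 34 of 40, by a median of 0.54. Over all genes it did so at 9141 of 18984, with a median of -0.02. ODC1, the polyamine enzyme gene and a classic MYC target, had 203 and 204 CPM in mutant, against 321 and 632 CPM in wild type. ODC1 was not called by edgeR (log2 fold change -1.23, adjusted p = 0.078), at -1.65 without NIPBLwt replicate 1 and -0.66 without NIPBLwt replicate 2. It was picked with its values in view. MYC itself had 81.0 CPM in NIPBLwt replicate 1 and 76.0 CPM in NIPBLwt replicate 2, while MAX had 55.3 and 73.4 CPM. The part of either level in the targets' difference was not tested. The target list was written with earlier results of these data known. Of the 40, 25 did not overlap and were lower in mutant, where 30.8% of all genes did so. Another 3 did not overlap and were higher, where 32.3% of all genes did so.

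**Figure D5:**
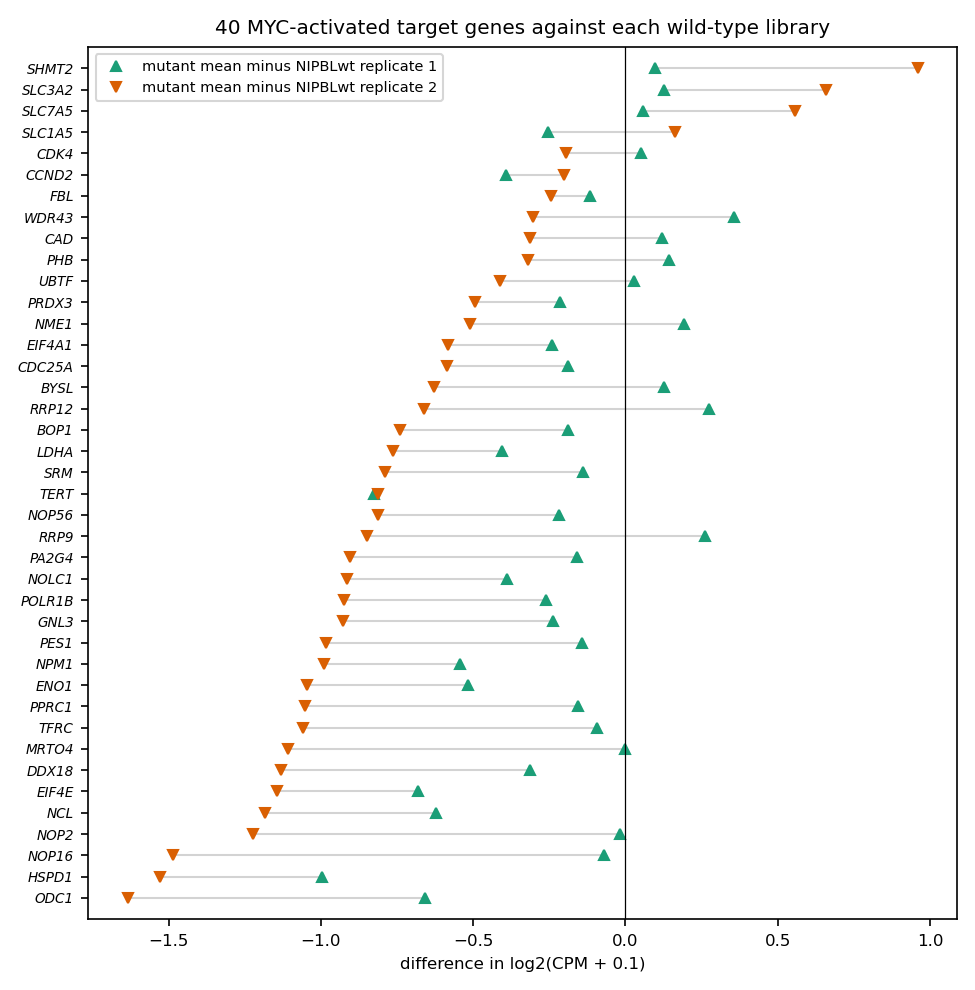
Difference in log2(CPM + 0.1) between the mean of the mutant libraries and each wild-type library for 40 MYC-activated targets, ordered by the second difference. The medians are -0.16 against NIPBLwt replicate 1 and -0.80 against NIPBLwt replicate 2.

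Of 7 genes known as repressed by MYC, none was called by edgeR or limma. Unadjusted edgeR p was under 0.05 for 2 of them (28.6%), beside 29.8% of all genes. NDRG1 had 42.9 and 44.2 CPM in mutant, against 95.8 and 64.5 CPM in wild type (log2 fold change -0.88, edgeR adjusted p = 0.0657), and DESeq2 called it lower (adjusted p = 0.00136). It was at -0.58 without NIPBLwt replicate 1 and -1.14 without NIPBLwt replicate 2. The cell cycle inhibitor CDKN1A, picked in the same way, had 20.8 and 26.3 CPM in mutant, against 18.8 and 10.5 CPM in wild type (0.69, edgeR adjusted p = 0.194), which was 1.16 without NIPBLwt replicate 1 and 0.32 without NIPBLwt replicate 2. The parallel MLX branch, which senses glucose through MLXIP and MLXIPL, had no call among 5 genes by edgeR, DESeq2 or limma, and none had an unadjusted edgeR p under 0.05. MLXIP had 13.2 and 12.9 CPM in mutant, against 14.5 and 18.4 CPM in wild type (-0.33, edgeR adjusted p = 0.246), at -0.51 without NIPBLwt replicate 1 and -0.15 without NIPBLwt replicate 2. TXNIP, the branch's best known target, had 156 and 171 CPM in mutant, against 136 and 34.1 CPM in wild type. The wild-type libraries thus differed from each other at TXNIP by more than NIPBLwt replicate 1 differed from either mutant library. TXNIP too was picked with its values in view.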

How the data were processed

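Libraries were directional and made from total RNA after Ribo-Zero treatment, per the labels' protocols. STAR 2.7.3a and RSEM 1.3.1 with the hg38 build are named in the submitters' processing notes. The sources used here give no annotation release, filter or strand setting. The authors deposited expected counts (estimated reads per gene, not whole), TPM (scaled by effective length) and gene lengths, per the file headers. The deposited FPKM were not used. Of 58174 identifiers 57836 matched GENCODE 29.

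Expected counts were rounded, filtered with filterByExpr by group, scaled by TMM, and fitted by edgeR's robust quasi-likelihood test (version 4.0.16, R 4.3.3), with Benjamini-Hochberg adjustment over 18984 genes. The library totals were alike, and 1 count was worth 0.0287 to 0.0335 CPM. The TMM factors were 1.06 and 1.063 in NIPBLmut replicates 1 and 2, against 0.984 and 0.902 in NIPBLwt replicates 1 and 2. Overlap of the groups in CPM is relative to that scaling. Levels are TMM-scaled CPM, and intervals use the test's degrees of freedom. Alternatives were RLE, upper-quartile and total-count scaling, no filter or a mean of at least 5 CPM, DESeq2 1.42.0, limma 3.58.1 (voom, or trend on log2(TPM + 1) and log2(TPM + 0.1)), effective length offsets, a replicate block, each library left out, and removal of the neighbours' median.

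Named genes were all members, up to 2 called per direction with the smallest p in each other list or else the 1 with the smallest p, neighbours of called members, and the 5 genes most like a called member. Genes outside this rule are named as picked with their values in view. The members and lists were chosen with earlier results of these data known. The list of blood markers is not reported here.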

Additional observations from a re-analysis of the deposited data

How the results depend on the processing

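The count of called network members, 1 with all libraries and TMM, was 2 with DESeq2 and 2 with the replicate block (MYCN added), 0 with the neighbourhood median removed, and 0 to 8 when 1 library was left out. Calls over all genes, 1103 in the fit reported, were 1918 with no filter, 514 with the stricter filter, 2500 with DESeq2, 2279 with the replicate block, 610 with the neighbourhood median removed, and 399 to 11840 when 1 library was left out. Leaving out a wild-type library takes the spread from the close mutant pair alone, and leaving out a mutant library takes it from the wide wild-type pair alone, so counts there reflect that spread. MXD4 was lower in all 16 alternatives. It was called in each alternative that kept all libraries, except with the neighbourhood median removed. It was not called without either mutant library, and its calls without a wild-type library are not counted here. The sign of MYCL turned with total counts (0.11), upper-quartile scaling (0.0236), log2(TPM + 1) (0.13), log2(TPM + 0.1) (0.16), the stricter filter (0.0055) and the neighbourhood median removed (0.12), and ranged from -0.23 to 0.13 when 1 library was left out. The sign of MXD3 turned with total counts (0.0652), log2(TPM + 1) (0.14), log2(TPM + 0.1) (0.15) and effective length offsets (0.0051), and ranged from -0.22 to 0.0126 when 1 library was left out. Total counts, log2(TPM + 1) and log2(TPM + 0.1) moved the median over all genes to 0.166, 0.124 and 0.182, and upper-quartile scaling to 0.0777, and values under these settings are to be read against that shift. The cause of the other turns of sign was not tested.

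MYC-activated targets called lower, 2 of 40 in the fit reported, were 12 with DESeq2, 7 with no filter, 7 with the replicate block and 0 with log2(TPM + 0.1). Of all 18984 genes, those called lower were 399 in the fit reported, 1206 with DESeq2, 809 with the replicate block and 110 with log2(TPM + 0.1). With no filter they were 786 of 33495. The target counts were chosen after seeing the data. Counts with 1 library left out reflect the spread of 1 pair and are not given for the targets. The labels do not say that replicate numbers pair the libraries, and the deviations of same-numbered libraries correlated at -0.062 across genes. Depth limits MYCN most, with 0 reads in 1 library.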
